A study of Mus musculus with 7 samples.

Results

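The miR-378 family of microRNAs (miRNAs) was followed in CD4+ T cells, which help other immune cells respond to an antigen, from lymph nodes of mice with an inflamed or an infarcted heart. The family comprised the 5 names mmu-miR-378a-3p, mmu-miR-378a-5p, mmu-miR-378b, mmu-miR-378c and mmu-miR-378d (mmu, for mouse, is left off below), taken by name from the 1881 miRNA names on the array, with 10 of its 4415 probes. The cells came from a myocarditis model (EAM, 4 arrays) and from a model of myocardial infarction (LAD, 3 arrays). By the sample labels EAM was sampled on day 6 and LAD on day 3, whereas the series text has these days the other way round. Both groups were CD4+ cells of draining lymph nodes, taken by positive selection on magnetic beads, and neither the strain, sex and age of the mice nor the number of mice behind an array is given in the labels. No healthy mice were among the samples, so the values below set EAM against LAD, and the effects of model, day and position on the slide cannot be told apart. The labels do not say that the arrays of a group came from separate mice, so the spread between them may be technical.

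miR-378a lies in an intron of the gene of PGC-1β, a coactivator of mitochondrial biogenesis and fatty acid oxidation, and is co-expressed with it. In mouse liver, muscle and fat the 2 arms of this hairpin oppose the PGC-1β programme and restrain oxidative metabolism, and miR-378a is abundant in heart and skeletal muscle. miR-378b, miR-378c and miR-378d are names given to near-copies of the 3p arm elsewhere in the genome, and their roles in T cells are not established. A miRNA finds its targets mainly through its seed, bases 2 to 8 from the 5′ end.

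In the RefSeq annotation of GRCm38.p6, all 5 members had a hairpin gene. Mir378b lies on chromosome 11 (88352773 to 88352864) within the bounds of Msi2, an RNA-binding protein gene. Mir378c lies on chromosome 14 (46954830 to 46954928) within the bounds of Samd4 and of Gm52120. Mir378d lies on chromosome 10 (126710282 to 126710391) within no other annotated gene. The table gives gene bounds only, so exon and intron could not be separated for Mir378b and Mir378c.

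The mature RefSeq sequences of miR-378b, miR-378c and miR-378d are shown because they differ at the seed while nearly all the rest is shared. Capitals mark the seed.
miR-378b: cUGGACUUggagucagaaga
miR-378c: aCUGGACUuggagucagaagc
miR-378d: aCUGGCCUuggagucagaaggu
They lie at chr11:88352839-88352858 (plus strand), chr14:46954905-46954925 (minus strand) and chr10:126710355-126710376 (minus strand) of GRCm38.p6. Aligned without gaps, miR-378b and miR-378c were identical at 19 of 20 bases, miR-378b and miR-378d at 18 of 20, and miR-378c and miR-378d at 19 of 21. miR-378b starts 1 base later than miR-378c, which shifts its seed by 1 base, and the seed of miR-378d differs by letter. None of the 3 seeds was shared with any other of the 1679 mature mouse miRNA names in the table. The names searched did not include miR-378a-3p or miR-378a-5p, so whether these share a seed with the 3 was not examined. The sequences of miR-378a-3p and miR-378a-5p are not shown.

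The array probes of these 3 members, as given in the scanner files, are shown because they mainly read the part towards the 3′ end. There the members are nearly alike. Each probe also reaches into the seed of its own member, but none covers the whole seed. Capitals mark the run of 14 letters that all 6 probes share.
miR-378b, 16 letters: tCTTCTGACTCCAAGt
miR-378b, 17 letters: tCTTCTGACTCCAAGtc
miR-378c, 15 letters: gCTTCTGACTCCAAG
miR-378c, 16 letters: gCTTCTGACTCCAAGt
miR-378d, 16 letters: acCTTCTGACTCCAAG
miR-378d, 17 letters: acCTTCTGACTCCAAGg
Of the 4415 probes on the array, these 6 alone held the whole run. The 2 probes of miR-378a-3p, of 13 and 14 letters, both lie whole within each probe of miR-378d. They share runs of 12 and 13 letters with the probes of miR-378b and miR-378c. By Watson-Crick pairing the 17-letter probe of miR-378b pairs over 17 bases with miR-378b and over 16 with miR-378c, and the 16-letter probe of miR-378c pairs over 16 bases with miR-378c and over 15 with miR-378b. The 2 probes of miR-378a-5p, of 17 and 18 letters, share at most 4 letters in a row with any probe of the others. No family probe shared more than 9 letters in a row with a probe of any miRNA outside the family. How far each probe binds a neighbouring member was not tested on these arrays.

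The comparison of the models asks how the family's signal differed between CD4+ cells of myocarditis and of infarction. The 5 names were selected on their name and on EAM and LAD signals already known from these arrays, so their differences are given with no test and support nothing. The signal was higher in EAM cells for all 5 members, and no member's EAM arrays overlapped its LAD arrays (34% of the 423 tested miRNAs did the same). It was 2.49-, 2.36- and 2.15-fold higher for miR-378a-3p, miR-378d and miR-378b, which were detected on all 7 arrays. miR-378a-5p was detected on 2 of 3 LAD arrays and miR-378c on 1, so the sizes of their differences rest partly on signals at background. Signal is given as log2 units after background correction and quantile normalization, which gives every array the same spread of spot signals. Levels of different members come from different probes and cannot be set against each other.

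The LAD arrays were dimmer for detected miRNAs. The median over all non-control spots was close in the groups, at 46.2 to 51.2 intensity units in EAM and 45.9 to 48.0 in LAD. Among the 251 miRNAs detected on all 7 arrays, the 75th percentile of unscaled total signal was 171 to 246 intensity units on EAM arrays and 38.5, 92.8 and 29.2 units on LAD arrays 1, 2 and 3. The scanner software detected 445 to 471 miRNAs on EAM arrays and 311 to 380 on LAD arrays. Across those 251 miRNAs, Pearson's r was 0.995 to 0.999 between EAM arrays and 0.889 to 0.957 between LAD arrays (a description across miRNAs, which are not independent replicates). In bulk RNA, fewer cells of a type and less of a miRNA per cell cannot be told apart.

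Both miR-378a arms come from Mir378a, on chromosome 18 of GRCm38.p6 (61397835 to 61397900), within the bounds of Ppargc1b, which encodes PGC-1β. miR-378a-3p, the 3p arm, had normalized log2 signals of 7.55, 7.48, 7.80 and 7.76 on EAM arrays 1 to 4, and of 6.34, 6.996 and 5.65 on LAD arrays 1 to 3. All EAM arrays lay above all LAD arrays, with LAD array 2 nearest to them and LAD array 3 farthest. The mean was 7.65 ± 0.16 in EAM (SD, n = 4) and 6.33 ± 0.67 in LAD (SD, n = 3), a difference of 1.32 on the log2 scale with a standard error of 0.29, or 2.49-fold. Its unscaled total signal was 133, 128, 134 and 164 intensity units in EAM and 12.5, 36.8 and 4.47 units in LAD. It was detected on all 7 arrays.

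miR-378a-5p, the opposite arm of the same hairpin, had normalized log2 signals of 6.00, 6.17, 6.32 and 6.43 in EAM and of 5.19, 5.35 and 4.81 in LAD. The groups did not overlap, and LAD array 3, where this arm was not detected, was again lowest. The mean was 6.23 ± 0.19 in EAM (SD, n = 4) and 5.12 ± 0.28 in LAD (SD, n = 3), a difference of 1.11 (log2, standard error 0.17), or 2.16-fold. With 2 of 3 LAD arrays detecting it, this fold is rough. The difference of the 3p arm exceeded that of the 5p arm by 0.21 (log2), within the pooled SD of 0.27 between arrays of a group.

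miR-378b had normalized log2 signals of 7.85, 7.82, 7.92 and 7.96 in EAM and of 6.93, 7.28 and 6.14 in LAD. The order of the LAD arrays was that of miR-378a-3p. The mean was 7.89 ± 0.061 in EAM (SD, n = 4) and 6.78 ± 0.59 in LAD (SD, n = 3), a difference of 1.10 (log2, standard error 0.25), or 2.15-fold. Its unscaled total signal was 187 to 246 intensity units in EAM and 23.4, 56.6 and 9.86 units in LAD.

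The normalized log2 signals of miR-378c were 5.34, 5.42, 5.54 and 5.65 in EAM and 4.44, 4.91 and 4.30 in LAD. It was detected on all 4 EAM arrays and on LAD array 2 alone, so the LAD values of arrays 1 and 3 are those of an undetected miRNA. The mean was 5.49 ± 0.14 in EAM (SD, n = 4) and 4.55 ± 0.32 in LAD (SD, n = 3), a difference of 0.94 (log2, standard error 0.17), or 1.91-fold, a size read partly from undetected signals. The unscaled total signal was 16.2 to 25.9 intensity units in EAM and 4.28 units on LAD array 2, and the software lists 0.1, its value for an undetected miRNA, on the other LAD arrays.

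miR-378d had normalized log2 signals of 8.80, 8.75, 8.76 and 8.81 in EAM and of 7.96, 7.66 and 7.003 in LAD. In normalized signal its LAD arrays stood in another order than those of the other 4 members, with array 1 and not array 2 highest. The mean was 8.78 ± 0.030 in EAM (SD, n = 4) and 7.54 ± 0.49 in LAD (SD, n = 3), a difference of 1.24 (log2, standard error 0.22), or 2.36-fold. Its unscaled total signal was 292 to 384 intensity units in EAM and 35.6, 64.1 and 16.4 units in LAD. Before scaling, LAD array 2 was thus highest for miR-378d too, so the order depended on the normalization.

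**Figure D1:**
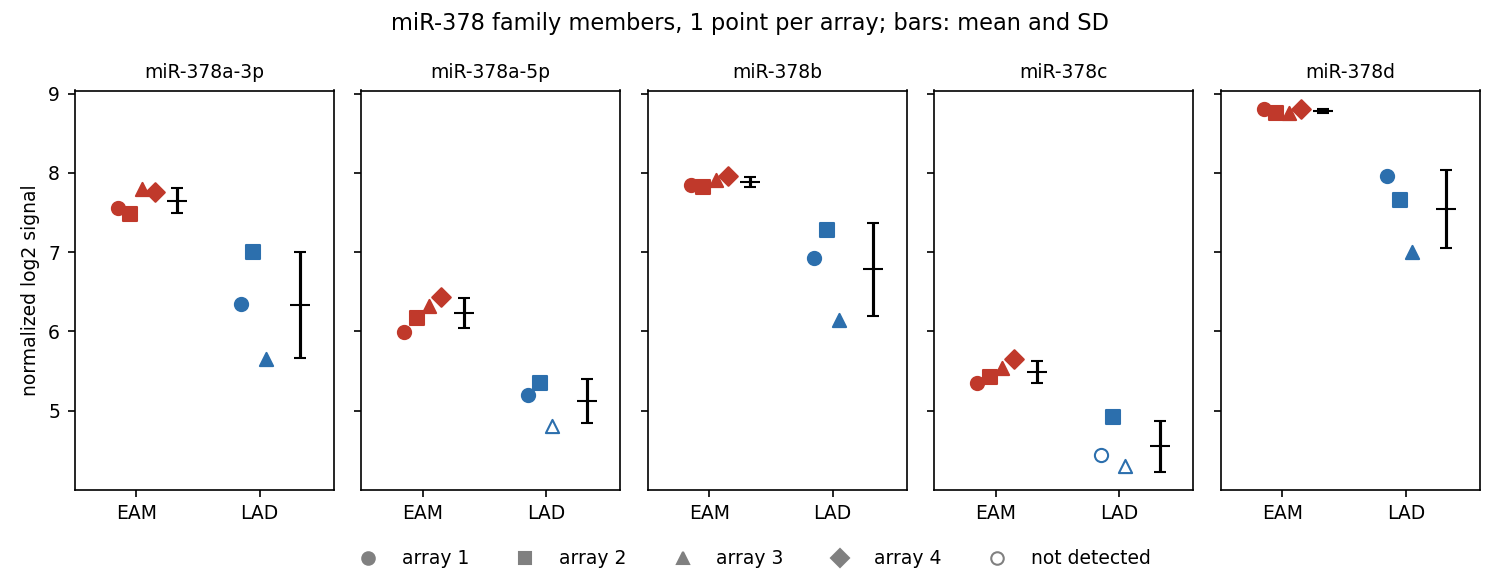
Normalized log2 signal of the 5 family members, 1 panel each, with EAM arrays left of LAD arrays, 1 point per array (marker shape gives the array number, open markers an array on which the miRNA was not detected) and bars for the mean and SD. In every panel the 4 EAM points lie above the 3 LAD points, LAD array 3 is lowest, and LAD array 2 is highest except for miR-378d.

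All 5 members were tested and all 5 passed toward EAM in the fit over 423 miRNAs (limma, Benjamini-Hochberg adjusted p under 0.05), where 36.2% of the tested miRNAs passed in that direction and 59.8% in either. A test with a separate variance for each group passed 0 members and 0 of the 423 miRNAs after adjustment (3 members and 120 miRNAs at an unadjusted p under 0.05). limma with the replicate number as a block also passed 0 of each (5 members and 180 miRNAs at an unadjusted p under 0.05). Because the family was proposed with this contrast in view, nothing is read from these counts. All EAM arrays lay above all LAD arrays for the 5 members and for 34% of the tested miRNAs. The family's median difference was 1.11 (log2), against 0.31 over all tested miRNAs. In the order of differences toward EAM, miR-378a-3p stood at place 14, miR-378d at 16, miR-378a-5p at 24, miR-378b at 26 and miR-378c at 41 of 423. miR-378a-5p and miR-378c entered the fit through their detection in EAM alone, while the other 3 were detected on every array. Among the 251 miRNAs detected on every array the median difference was -0.09, and 52 passed toward EAM, these 3 members among them.

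**Figure D2:**
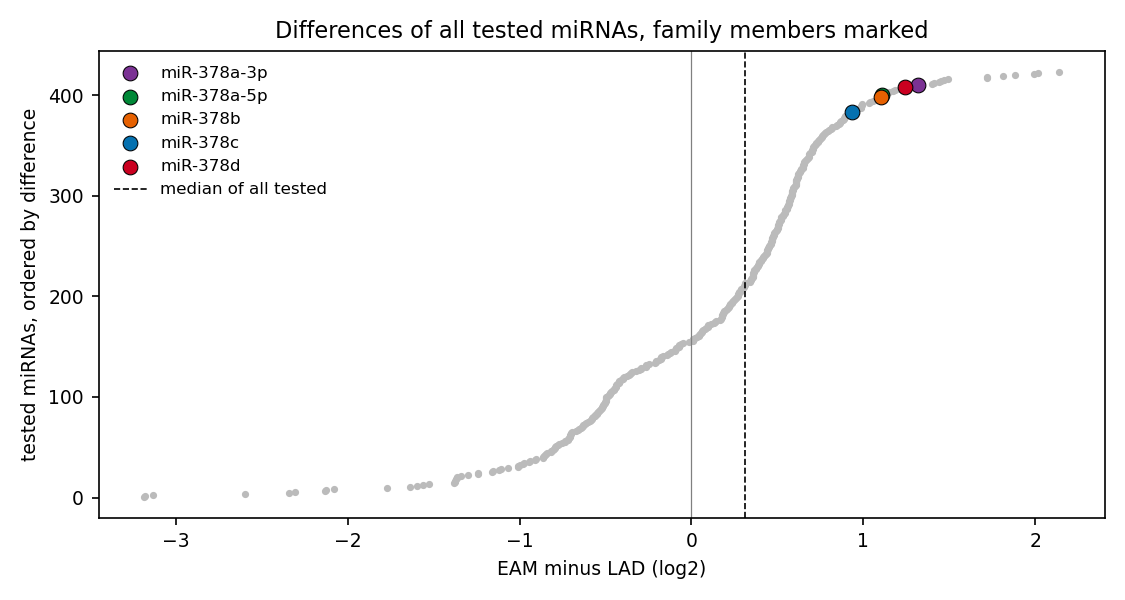
Difference (EAM minus LAD, log2, horizontal axis) of each of the 423 tested miRNAs, ordered from lowest to highest on the vertical axis, with the family members as coloured points and the median of all tested miRNAs (0.31) as a dashed line. The 5 members lie between 0.94 and 1.32, to the right of the median.

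Each member was read by a shorter and a longer probe, with 15 spots each per array. The EAM signal was the higher one on all 10 probes, with no overlap between the groups. Of the 423 tested miRNAs 34% also had no overlap in this direction. No such share was computed over all probes, so nothing is read from this count. The differences ranged from 0.59 to 1.36 (log2). The smallest was that of the 15-letter probe of miR-378c, which had 0 to 2 of its 15 spots well above background on each of the 7 arrays. The longer, 16-letter probe of miR-378c differed by 1.28 (6.13 ± 0.18 in EAM, n = 4, against 4.85 ± 0.53 in LAD, n = 3, SD), with at least 8 of its 15 spots well above background on 4 EAM arrays and 1 LAD array. The 0.94 of miR-378c is thus a summary of this probe and of one near background. Only 4 of the 10 probes, both of miR-378d, the longer of miR-378a-3p and the longer of miR-378b, had at least 8 of 15 spots well above background on all 7 arrays. Their differences were 1.15, 1.33, 1.28 and 1.002 in that order.

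Across the 1050 family spots of the 7 arrays, 26 were marked as outliers and 0 as saturated. The SD between the spots of a probe on 1 array was 0.036 to 0.39 (log2 of unscaled signal), which measures noise within an array and not the spread between samples.

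The gap between the longer and the shorter probe of a member was set side by side in the models. For miR-378a-3p it was 0.66 ± 0.12 in EAM and 0.74 ± 0.17 in LAD (log2, SD, n = 4 and 3), for miR-378a-5p 0.26 ± 0.063 and 0.21 ± 0.15, and for miR-378b 2.09 ± 0.17 and 2.30 ± 0.31. These 3 shifts were smaller than the pooled SD. The gap of miR-378d was -0.67 ± 0.029 in EAM and -0.84 ± 0.14 in LAD, and that of miR-378c was 1.28 ± 0.12 and 0.59 ± 0.43, where the longer miR-378c probe was at background on LAD arrays 1 and 3. The shifts depended on the processing. The shift of miR-378d (EAM minus LAD) was 0.17 as reported, 0.063 with local background and an offset of 50, 0.028 by either upper quartile and -0.065 with median centring or without scaling. That of miR-378b was -0.21 as reported and 0.40 with median centring or without scaling, and that of miR-378c was 0.69 as reported and -0.52 by the upper quartile of detected probes. No difference between the probes of a member is read from these gaps.

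Whether the names are separate measurements was described by how far 2 probes departed from each other over the 7 arrays, after each probe's own mean was taken off (root mean square difference, log2). Between the 2 probes of 1 member it was 0.095 to 0.42 (5 pairs, median 0.12). Between probes of different members among miR-378a-3p, miR-378b, miR-378c and miR-378d it was 0.083 to 0.51 (24 pairs, median 0.30), and between miR-378a-5p and those members 0.20 to 0.32 (16 pairs, median 0.23). Many of these 45 pairs hold a probe at background on some LAD arrays. The lowest value, 0.083, joined the 16-letter probe of miR-378b and the 14-letter probe of miR-378a-3p, but that miR-378b probe had 7 and 0 of its 15 spots well above background on LAD arrays 1 and 3, so its place among the pairs is not read. With both probes above background on all 7 arrays, the 2 probes of miR-378d, the 1 pair within a member, stood at 0.12, and the 5 pairs between members at 0.14 to 0.26. The lowest of those 5 joined the 17-letter probe of miR-378b and the 16-letter probe of miR-378d. With 1 pair within a member, these values do not settle whether the names are separate measurements.

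miR-378d and miR-378a-3p differed within the LAD group. On the probes above background everywhere, the 2 probes of miR-378d departed from each other by 0.12, and from the 14-letter probe of miR-378a-3p by 0.26 and 0.22. Relative to its EAM mean, miR-378d was at -0.82, -1.12 and -1.78 (log2) on LAD arrays 1, 2 and 3, and miR-378a-3p was at -1.30, -0.65 and -2.00. These 2 names therefore gave unequal profiles although the probes of miR-378a-3p lie whole within those of miR-378d. In unscaled total signal the 2 names had the same LAD order, with array 2 highest and array 3 lowest. The unequal profiles rest on 3 LAD arrays of unequal brightness, whose part in them was not tested.

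**Figure D3:**
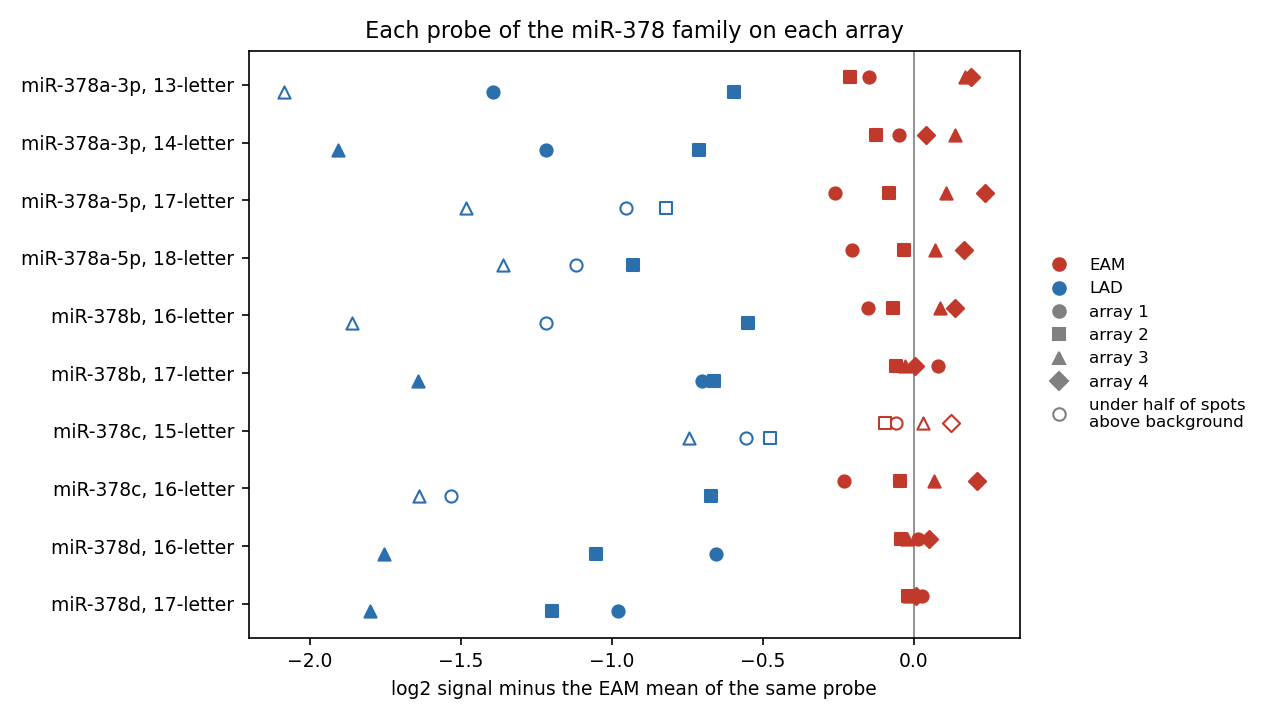
Log2 signal of each of the 10 family probes (rows, named by member and probe length) on each array, minus that probe's EAM mean (horizontal axis), with EAM in red, LAD in blue, array number by marker shape, and open markers where fewer than 8 of the 15 spots were well above background. Every LAD point lies left of every EAM point of its row, and the 15-letter probe of miR-378c is open throughout. In these normalized values the LAD order of the miR-378d probes differs from that of miR-378a-3p.

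The size of the difference depended on how the signal was processed, while its direction did not in the 9 sets of values compared. In each of the 9 sets the 5 members were higher in EAM than in LAD with no overlap between the groups, and each lay above the median difference of all tested miRNAs. The share of all tested miRNAs without overlap in this direction was computed for the reported set only (34%). The absence of overlap in the other sets is therefore not read. All 5 passed in limma in 8 sets and 4 in the set of total gene signal. Toward EAM, 19.1% of the tested miRNAs passed with the upper quartile of detected probes, 20.1% with total gene signal, 30% with local background and an offset of 50 and 32.4% without background correction. That share was 35.2% in the authors' deposited table, 50.1% with the upper quartile of all probes, 62.4% with median centring and 70.7% without scaling. For miR-378a-3p the difference ran from 0.91 with normexp, local background and an offset of 50 to 2.42 without scaling between arrays, for miR-378b from 0.78 to 2.36 and for miR-378d from 0.95 to 2.71. The difference of miR-378a-5p ran from 0.56 to 3.82 and that of miR-378c from 0.39 to 5.12, where the highest values came from total gene signal, in which undetected miRNAs stand at a floor. The 9 sets come from the same 7 arrays and are not independent.

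The authors' deposited table gave log2 values for miR-378a-3p of 7.69, 7.63, 8.14 and 8.09 in EAM and of 6.79, 7.28 and 6.31 in LAD, a difference of 1.09. In the authors' deposited table the differences were 0.71 for miR-378a-5p, 0.98 for miR-378b, 0.52 for miR-378c and 1.23 for miR-378d. Without LAD array 3, the dimmest, the difference of miR-378a-3p was 0.98, and without LAD array 2, the brightest, it was 1.65. Leaving out any 1 array kept each member's difference between 0.78 and 1.65.

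**Figure D4:**
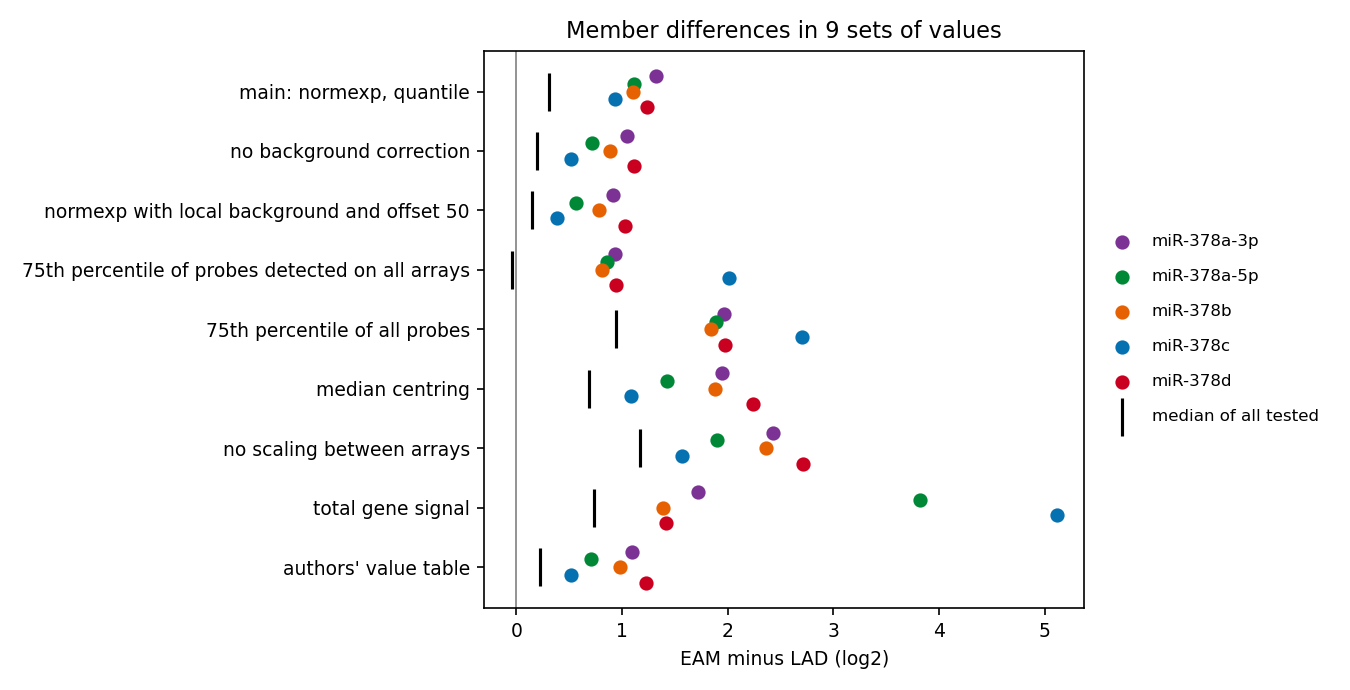
Difference of each family member (EAM minus LAD, log2, horizontal axis) in 9 sets of values (rows, the reported one on top), with the median of all tested miRNAs as a vertical bar. Every member lies to the right of 0 and of the bar in each row, and miR-378c and miR-378a-5p spread most.

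The miRNAs whose pattern over the 7 arrays was most like that of miR-378a-3p were miR-425-5p, miR-378b, miR-98-5p, miR-219a-5p and miR-423-5p, with root mean square differences of 0.14, 0.15, 0.16, 0.21 and 0.22 (log2, 7 arrays, each miRNA minus its own mean). The median over the 250 other miRNAs detected on all 7 arrays was 0.85. miR-378d stood at place 15, at 0.29. Without background correction miR-98-5p, miR-425-5p and miR-378b were the closest, at 0.11, 0.12 and 0.12. When arrays were instead scaled by the upper quartile of their detected probes, miR-378b was at place 5 and miR-98-5p at place 8. With that scaling miR-425-5p was at place 9, miR-423-5p at 11 and miR-219a-5p at 16. In the authors' deposited table miR-98-5p, miR-425-5p and miR-219a-5p were at places 2, 3 and 4. There miR-378b was at place 7 and miR-423-5p at 16. All 7 arrays enter each of these values, so a difference between EAM and LAD that 2 miRNAs share enters them too.

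Other miRNAs known for roles in energy metabolism were listed for comparison. Of 15 on the list, 7 were tested, 2 passed toward EAM, 0 toward LAD and 5 did not pass (limma, 36.2% of all tested miRNAs passed toward EAM). miR-33-5p, a brake on cholesterol export encoded in an intron of Srebf2, was higher in EAM, with 5.95 ± 0.25 against 4.97 ± 0.48 (log2, SD, n = 4 and 3, limma adjusted p = 0.0173), and was detected on 2 of 3 LAD arrays. miR-107-3p, which lowers insulin sensitivity in liver and fat, was higher by 0.72 (8.54 ± 0.036 against 7.82 ± 0.52, limma adjusted p = 0.0310). Its near-twin miR-103-3p was at 8.40 ± 0.065 in EAM and 7.87 ± 0.62 in LAD and did not pass (limma adjusted p = 0.111). miR-27a-3p, miR-27b-3p, miR-34a-5p and miR-365-3p did not pass, with differences of 0.31, 0.60, -0.53 and -0.27. miR-122-5p of liver, miR-375-3p of pancreatic islets, miR-210-3p of the hypoxia response, miR-143-3p, miR-193b-3p, miR-335-5p, miR-370-3p and miR-802-5p were not detected on any array. The median difference of the 7 tested was 0.53, against 0.31 over all tested miRNAs.

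Marker miRNAs of other tissues and cells were also read. Signals in units here are normalized signals taken off the log scale, and cannot be set against the unscaled intensity units above. All 7 heart and skeletal muscle miRNAs on the marker list (miR-1a-3p, miR-133a-3p, miR-133b-3p, miR-206-3p, miR-208a-3p, miR-208b-3p and miR-499-5p) were undetected on all 7 arrays. Of 4 fat markers, miR-365-3p alone was detected, at 5.12 ± 0.096 in EAM and 5.38 ± 0.081 in LAD (limma adjusted p = 0.0779). The leukocyte and lymphocyte miRNAs miR-142a-3p, miR-150-5p, miR-155-5p and miR-342-3p were detected on every array, 3 of the 4 passed toward EAM (36.2% of all tested miRNAs did), and the summed signal of these 4 was 45556 to 51624 units in EAM and 31718 to 39388 in LAD. Of 5 epithelial markers 4 passed toward EAM, against 36.2% of all tested miRNAs, and all 5 entered the fit through their detection on the 4 EAM arrays, with detection on 0 or 1 LAD array each, so nothing is read from that count. Their summed signal was 176 to 224 units in EAM and 114 to 142.9 in LAD, with miR-200a-3p and miR-203-3p undetected on all LAD arrays. The myeloid marker miR-223-3p was higher in LAD, at 86.1 to 106 units in EAM and 209 to 583 in LAD. Of the red-cell markers miR-451a was detected (91.3 to 137 units in EAM, 74.5 to 221 in LAD) and miR-144-3p and miR-486a-5p were not. Of 6 endothelial and stromal markers miR-126a-3p alone was detected, on 3 of 4 EAM arrays and 2 of 3 LAD arrays. Its signal was 27.7 to 36.1 units in EAM and 20.5 to 59.5 in LAD, ranges that include the arrays on which it was undetected. The part of epithelial and myeloid cells in the family's difference was not tested.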

How the data were processed

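RNA of 7 samples was hybridised to 7 one-colour Agilent arrays on 1 slide. The deposited scanner files hold intensity per spot and per miRNA, background-subtracted where so named, and other values that mark each spot's detection and quality as 0 or 1, per the file headers (Agilent Feature Extraction 10.7.3.1, probe positions on mm9). The authors' table holds log2 values per miRNA name, and the submitters' processing notes name RMA with no version. Here mean spot signal was corrected with normexp fitted on all spots (limma 3.58.1 in R 4.3.3, no offset), and the 56430 non-control spots were quantile normalized. The spots of a probe were summarized by their log2 median without outlier spots, and the probes of a miRNA by median polish. The 423 miRNAs that all EAM or all LAD arrays detected were fitted with limma's lmFit and eBayes. The fit takes 1 variance for both groups, while LAD arrays varied more, so its errors can be too small. With 7 arrays, their number limits the precision.

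The members, the lists of metabolic and marker miRNAs and the rules for naming (the 5 members, the 5 miRNAs most like miR-378a-3p, and listed miRNAs that passed) were chosen with earlier results of these data known. Alternatives changed the background correction, scaling, summary, filter, variance model and arrays. Fitting normexp without control spots, an unequal-variance test and keeping only bright probes were added after seeing the data. Sequences came from the scanner files and the RefSeq table. Of the deviations of same-numbered arrays from their group means, the correlations were 0.22, -0.20 and -0.20. With so few arrays these values cannot decide whether the numbers pair the arrays.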

Additional observations from a re-analysis of the deposited data

How the results depend on the processing

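No alternative turned the direction of a member's difference (EAM minus LAD, log2). For miR-378a-3p, miR-378b and miR-378d it was 1.96, 1.84 and 1.98 by the upper quartile of all probes, 1.95, 1.88 and 2.24 with median centring, and 2.42, 2.36 and 2.71 without scaling. For miR-378a-5p and miR-378c it was 0.71 and 0.52 without background correction, 0.56 and 0.39 with local background and an offset of 50, 0.86 and 2.01 by the upper quartile of detected probes, 1.89 and 2.71 with that of all probes, 1.90 and 1.57 without scaling, 3.82 and 5.12 by total gene signal, 0.71 and 0.52 in the authors' deposited table, and 1.38 and 1.33 with normexp fitted on non-control spots. That of miR-378a-5p was 1.42 with median centring. Leaving out 1 array gave 0.98 to 1.65 for miR-378a-3p, 0.96 to 1.23 for miR-378a-5p, 0.78 to 1.35 for miR-378b, 0.81 to 1.12 for miR-378c and 0.97 to 1.45 for miR-378d. All 5 members passed in each of these 7 fits, in which 41 to 232 of all tested miRNAs passed toward EAM. The family was proposed with this contrast in view, so nothing is read from that count.

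Of all tested miRNAs, 153 passed toward EAM and 100 toward LAD. With 1 array left out these counts were 41 (without EAM array 4) to 232 (without LAD array 2) and 34 to 112. Toward EAM, 81 passed by the upper quartile of detected probes, 85 by total gene signal, 52 (3 members) with miRNAs detected on all arrays, 239 with no detection filter, and 232 with array weights. With median centring 264 passed toward EAM and 58 toward LAD, without scaling 299 and 2, and without a detection filter 206 toward LAD. The median difference of all tested miRNAs was -0.044 with the upper quartile of detected probes, -0.091 with miRNAs detected on all arrays and -0.036 with no filter. With the replicate number as a block, which leaves 2 residual degrees of freedom, limma passed 0 miRNAs and 0 members (180 and 5 at an unadjusted p under 0.05), and the member differences were 0.88 to 1.28. The unequal-variance test passed 0 of each (120 and 3 unadjusted). The cause of these changes was not tested.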
